A study of Homo sapiens with 22 samples.

Results

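The HA peaks of clone NIPBL-A2 are the 230 regions called in 1 chromatin immunoprecipitation sequencing (ChIP-seq) library made with an HA antibody, out of 341123 peaks in the 12 lists of the series. All 230 were kept, and each was set against the 39713 RAD21 peaks of the same clone in DMSO. The cells were hTERT RPE-1, an established human line from retinal pigment epithelium kept dividing by added telomerase. Clone NIPBL-A2 has the genotype mCherry-P2A-FKBP12(F36V)-NIPBL, in which a degron domain on NIPBL lets the small molecule dTAGV-1 send the protein to degradation. It is 1 clone, and the labels give the HA library no treatment. The labels do not say which protein carries the HA epitope, but peak names inside the deposited HA list call the target HA-NIPBL. The series holds no other HA immunoprecipitation, so none from wild-type cells and none labelled as treated with dTAGV-1. Which HA peaks depend on the tagged protein was thus not tested. RAD21 was precipitated from clone NIPBL-A2 after 24 h in DMSO and after 4 h or 24 h in dTAGV-1, with about 10% mouse NIH/3T3 chromatin as spike-in. Clone NIPBL-D7, genotype mGreenLantern-P2A-FKBP12(F36V)-NIPBL, gave 3 further RAD21 lists under the same treatments, PDS5A after 24 h in DMSO, and STAG1 and STAG2 with no treatment in the labels. CTCF and WAPL came from wild-type cells. HA chromatin alone was fixed with 2 mM DSG, a protein-to-protein crosslinker, for 45 min before 1% formaldehyde for 10 min, while the other chromatin received only the formaldehyde. Antibody, fixation and library thus differ together between HA and RAD21, and their parts cannot be told apart.

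Cohesin is a ring of SMC1A, SMC3 and the kleisin RAD21, completed by STAG1 or STAG2, that extrudes DNA loops. NIPBL binds cohesin and stimulates its ATPase, which is needed for loading and for extrusion, whereas PDS5A competes with NIPBL for RAD21 and WAPL releases the ring. CTCF, a zinc-finger protein bound to an oriented motif, stops extruding cohesin, so most RAD21 peaks of cycling cells sit on CTCF sites. Cohesin also collects at active promoters and enhancers that lack CTCF.

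The HA peaks crossed the 250 bases before the transcription start of 14 RefSeq genes, and 4 of these promoters are shown because they span the range of the data. MAML2, a Notch coactivator, carried CTCF and one of the strongest RAD21 peaks. CITED2, a co-regulator that binds CBP and p300, lay in a group of 4 HA peaks. EEF1A1, a translation elongation factor, had the strongest HA peak at a gene end and no CTCF. TBL1X, a subunit of the NCoR corepressor, had no CTCF, and its RAD21 peak was in neither A2 dTAGV-1 list. The sequences are from RefSeq (GRCh38.p14), read 5′ to 3′ on the gene's strand and ending at the base before the start, with the bases under the HA peak in capitals. MAML2 is chr11:96343196-96343445 on the minus strand, CITED2 is chr6:139374649-139374898 on the minus strand, EEF1A1 is chr6:73521033-73521282 on the minus strand and TBL1X is chrX:9463045-9463294 on the plus strand.
MAML2: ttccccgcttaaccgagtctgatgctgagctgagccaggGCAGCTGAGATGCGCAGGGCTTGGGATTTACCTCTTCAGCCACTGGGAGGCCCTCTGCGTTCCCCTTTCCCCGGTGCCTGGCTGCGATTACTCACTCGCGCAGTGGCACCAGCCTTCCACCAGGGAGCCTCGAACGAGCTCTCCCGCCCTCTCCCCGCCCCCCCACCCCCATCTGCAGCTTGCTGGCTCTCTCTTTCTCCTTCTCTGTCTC
CITED2: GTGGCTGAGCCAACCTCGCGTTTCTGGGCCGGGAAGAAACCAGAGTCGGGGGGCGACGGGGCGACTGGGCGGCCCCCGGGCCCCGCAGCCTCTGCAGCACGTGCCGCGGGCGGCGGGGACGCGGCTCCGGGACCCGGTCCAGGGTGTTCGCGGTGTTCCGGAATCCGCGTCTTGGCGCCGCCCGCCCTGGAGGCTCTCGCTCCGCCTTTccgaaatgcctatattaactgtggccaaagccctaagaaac
EEF1A1: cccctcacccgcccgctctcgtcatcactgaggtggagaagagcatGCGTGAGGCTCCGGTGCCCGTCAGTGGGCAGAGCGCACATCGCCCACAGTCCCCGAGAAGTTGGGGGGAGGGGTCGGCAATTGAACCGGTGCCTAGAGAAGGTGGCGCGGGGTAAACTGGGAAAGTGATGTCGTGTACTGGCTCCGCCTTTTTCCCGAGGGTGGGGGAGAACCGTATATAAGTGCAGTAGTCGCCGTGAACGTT
TBL1X: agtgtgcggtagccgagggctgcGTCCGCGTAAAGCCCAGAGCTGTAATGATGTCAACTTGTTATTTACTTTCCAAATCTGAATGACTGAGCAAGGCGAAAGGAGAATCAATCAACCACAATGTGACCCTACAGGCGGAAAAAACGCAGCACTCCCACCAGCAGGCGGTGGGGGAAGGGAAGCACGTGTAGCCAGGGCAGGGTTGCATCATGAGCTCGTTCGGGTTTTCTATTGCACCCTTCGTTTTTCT
The CTCF core consensus, searched on both strands, was in 0 of the 14 crossed promoters, in 0.427% of all 35116 promoters of this length and in 1.97% of the 6598 promoters crossed by a CTCF peak. The AP-1 site TGANTCA, searched the same way, was in 3 of the 14 (LINC01132, LINC03108 and UST-AS2) and in 6.57% of all promoters. Only in LINC03108 did it lie in the bases under the HA peak. In LINC01132 and UST-AS2 it lay in the part of the promoter outside that peak. The GC content of the crossed promoters had a median of 60.4%, against 58% over all promoters and 67.6% over the 5939 crossed by a RAD21 peak.

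HA peaks lay almost wholly inside the cohesin map of their own clone, and they were short. Of the 230, 220 overlapped an A2 DMSO RAD21 peak by at least 1 bp, and they fell on 216 distinct RAD21 peaks, 0.544% of that list. The HA peaks had a median width of 344.5 bp (95% order-statistic interval 322 to 358), and 217 of the 220 were narrower than the RAD21 peak beneath them. HA and RAD21 summits were a median of 60 bp apart (50 to 75). At HA peaks with CTCF that distance was 49 bp (41 to 59), and at those without it was 102 bp (66 to 150). A requirement that the overlap fill at least 50% of both peaks left 23.9% of HA peaks on RAD21 and 16.1% on CTCF; the median HA peak was 33.9% as wide as its RAD21 peak. Fragment numbers behind these calls were modest. They were solved at the 91 HA peaks whose local background equalled the genome average. There the fold and p that the authors deposited correspond to 23 to 131 fragments at the summit, with a median of 33. The average background was 3.20 fragments.

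CTCF was under most HA peaks but under fewer of them than under RAD21. A CTCF peak of wild-type cells overlapped 154 of the 230 HA peaks, 67.0% (95% Wilson interval 60.6 to 72.7), while 85.9% of all A2 DMSO RAD21 peaks overlapped CTCF. Counted over the RAD21 peaks, CTCF was at 72.7% of the 216 under HA and 86.0% of the 39497 others, a difference of −13.3 points (95% Newcombe interval −19.6 to −7.76). With the other RAD21 peaks weighted to the same spread over 10 equal groups by RAD21 fold (deciles, 10 being the strongest), their CTCF share was 90.9%. HA peaks of a −log10 q of at least 10, 77 in number, overlapped CTCF in 79.2% of cases. The intervals here and below cover counting error only, since each list is 1 library and its peaks are not replicates.

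Few HA peaks were at gene ends, and most lay outside protein-coding genes, some of them inside noncoding genes. A summit within 1 kb of either end of a protein-coding gene was found for 22 HA peaks, 9.57% (6.40 to 14.1), of which 12 had CTCF and 10 did not. The same share was 14.3% over RAD21 peaks. Only 65 HA summits lay inside a protein-coding gene, 28.3% (22.8 to 34.4), against 49.7% of RAD21 summits and 50.9% of CTCF summits. Over RAD21 peaks under HA the share inside genes was 26.9%, and over the others 49.8%, a difference of −23.0 points (−28.5 to −16.7). The others weighted to the same deciles had 46.6%, and among CTCF-overlapping RAD21 peaks the shares were 25.5% under HA and 49.1% elsewhere. Among CTCF-free RAD21 peaks, gene ends held 13.6% of those under HA and 26.4% of the others, a difference of −12.8 points (−19.5 to −1.80). The median HA summit was 40441 bp from the nearest gene end and the median RAD21 summit 19334 bp. A window of 2.5 kb gave 17.8% of HA summits at gene ends, and transcription starts alone, over the 221 peaks off chromosome 8, gave 5.88%.

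At gene ends with CTCF the HA peaks of highest fold were at INHBA, CITED2 and MAML2. INHBA encodes the activin A subunit, and its HA peak (chr7:41705081-41705721, HA fold 12.04) lay 146 bp from a gene end and 2170 bp from the listed start, over a RAD21 peak at the 90.3rd percentile of RAD21 fold. At CITED2 the HA peak (chr6:139374690-139375625, fold 10.6) had its summit 646 bp before the start, on a RAD21 peak 4271 bp wide. The MAML2 peak (chr11:96343158-96343406, fold 8.60) had its summit 91 bp before the start, on a RAD21 peak of fold 112. The 12 CTCF-bearing gene ends lay over RAD21 peaks with a median width of 2042.5 bp and a median rank at the 95.8th percentile. They also included COL1A1, the cadherins FAT1 and PCDH1, the hypoxia-responsive peptide hormone gene ADM and the repressor BHLHE41. All 12 overlapped STAG1 and PDS5A peaks, and all 12 were in the A2 list at 24 h of dTAGV-1.

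The 10 CTCF-free gene ends were led by EEF1A1, TPRG1 and GPAM. The EEF1A1 peak (chr6:73520048-73521236) had an HA fold of 19.3 and a width of 1189 bp, the second widest, over a RAD21 peak of fold 6.16 at the 21.8th percentile. Its summit lay 578 bp past the start, and 204 of its bases lay before the start. EEF1A1 has many near-identical processed copies in the genome, but the bases before the start lie outside the transcript they derive from. Which other bases of the peak such copies hold, and whether reads came from these or from any other copy, was not tested. The TPRG1 peak (chr3:189324596-189325062) had a fold of 7.21 and lay 620 bp from a gene end, the nearest start in the promoter table being 223625 bp away. The GPAM peak (chr10:112227599-112227936), with a fold of 6.89, lay 9 bp from an end of this glycerol-phosphate acyltransferase gene and 43921 bp from its listed start. Of the 10, 7 overlapped STAG1, 4 STAG2 and 4 PDS5A.

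Away from gene ends, the 3 strongest of the 142 CTCF-bearing HA peaks were all on chromosome X. The first lay 12799 bp from FAM156B (HA fold 39.0), the next 12419 bp from FAM156A (fold 33.5) and the third inside the long noncoding RNA gene LOC105377209, 69333 bp from MAGED4 (chrX:52261353-52261915, fold 26.7). FAM156A and FAM156B, like MAGED4, have near-identical copies, so the signal at each copy is uncertain. The 66 CTCF-free HA peaks away from gene ends were led by GTF2F2, by a site 156958 bp from TBL1XR1 (chr3:177358560-177358981, fold 10.9) and by one inside PTPA (chr9:129139887-129140318, fold 10.0). The sites near TBL1XR1 and in PTPA lay on RAD21 peaks 3335 bp and 2431 bp wide that overlapped CTCF elsewhere, and both of these wide peaks held a further HA peak.

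HA peaks with CTCF lay mostly over strong RAD21 peaks and those without CTCF over weak ones. The 157 CTCF-overlapping RAD21 peaks under HA had a median fold percentile of 87.6 (83.2 to 90.3), against 56.9 for the other CTCF-overlapping peaks, and 69 of them were in decile 10. Their ranks nonetheless ran down to the 5.76th percentile. The 59 CTCF-free ones had a median of 25.6 (20.9 to 31.3), against 10.7 for the other CTCF-free peaks, a class with few members above decile 6. Even so, HA held only 1.74% of decile 10 (1.38 to 2.19) and 3 of the 100 RAD21 peaks of highest fold. Among CTCF-free RAD21 peaks the share under HA was 0.305% in decile 1 (8 of 2622), 2.04% in decile 3 (17 of 835), 6.09% in decile 4 (17 of 279) and 8.75% in decile 5 (7 of 80). In the same decile 4, 6 of 3693 CTCF-overlapping RAD21 peaks, 0.162%, were under HA. HA fold followed RAD21 fold little: Spearman's rho over the 220 shared sites of these 2 libraries was 0.17, and it was 0.02 over the 154 sites with CTCF and −0.02 over the 66 without.

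**Figure D1:**
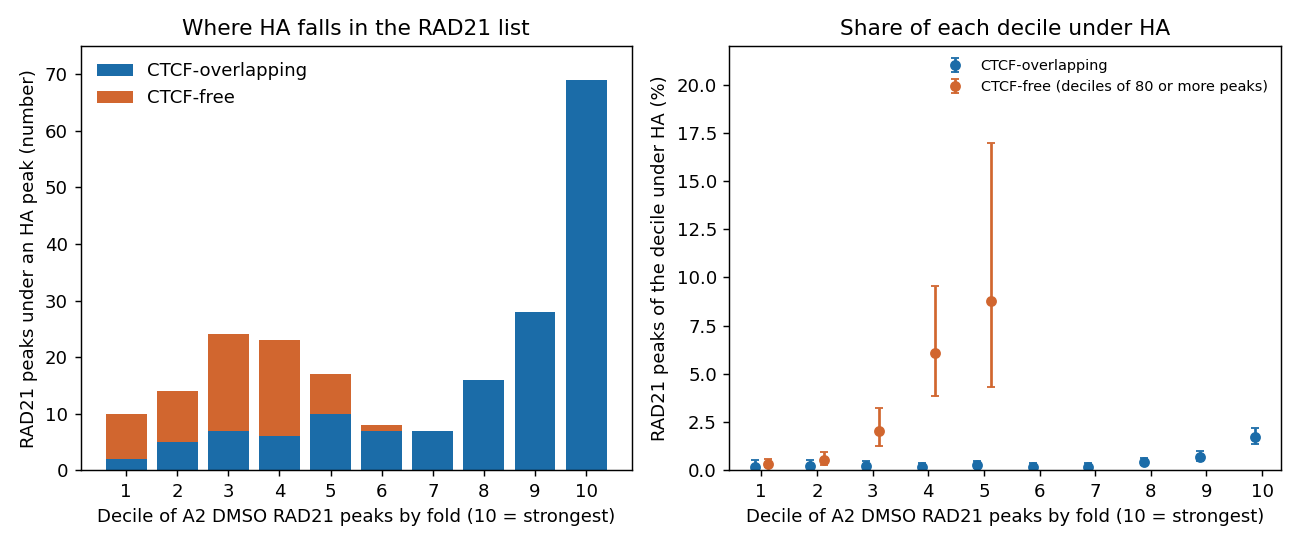
Left, number of A2 DMSO RAD21 peaks under an HA peak in each decile of RAD21 fold, split by CTCF overlap. Right, the percent of each decile under HA with 95% Wilson intervals, for deciles of at least 80 peaks. CTCF-overlapping sites were most numerous in decile 10 (69 peaks), and the CTCF-free share was 8.75% in decile 5.

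**Figure D2:**
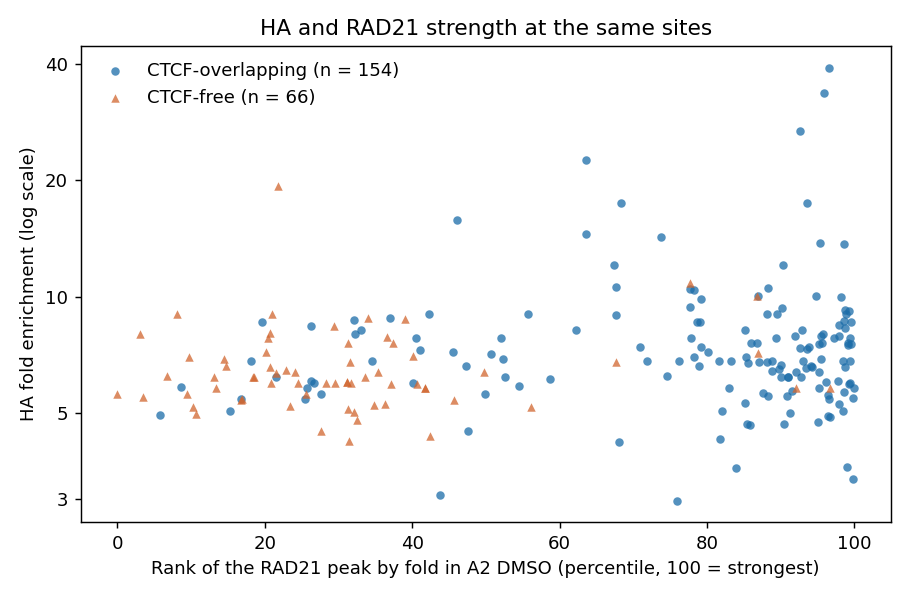
HA fold enrichment (log scale) against the RAD21 rank percentile for the 220 HA peaks on a RAD21 peak, by CTCF overlap. Most CTCF-free peaks lie at low RAD21 rank, those at high rank being on wide RAD21 peaks that overlap CTCF elsewhere, and the 3 highest HA folds (up to 39.0) are at CTCF sites on chromosome X.

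RAD21 peaks under HA were wide for their strength. Their median width was 1058 bp (990 to 1134), against 639 bp for the 39497 others, and 113 of the 216 were at least 1024 bp wide, the limit of the widest decile of the list. HA held 11 of the 100 widest RAD21 peaks and 3 of the 100 strongest. Within deciles of fold the median under HA was the wider in 9 of 10. In decile 10 it was 1296 bp against 967 bp, in decile 5 it was 1134 bp against 534.5 bp, and the exception was decile 7 with 678 bp against 694 bp over 7 peaks. For CTCF-free sites the medians were 679 bp (563 to 888) under HA and 446 bp elsewhere, with 628 bp and 563 bp in decile 3 and 748 bp and 750.5 bp in decile 4. A wider peak offers more bases to overlap, so the main shares below are also given for other RAD21 peaks matched in strength and width. Width was matched only by 5 equal classes of the whole list, the widest of them without an upper limit. Sites under HA can therefore still be wider than the peaks matched to them.

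**Figure D3:**
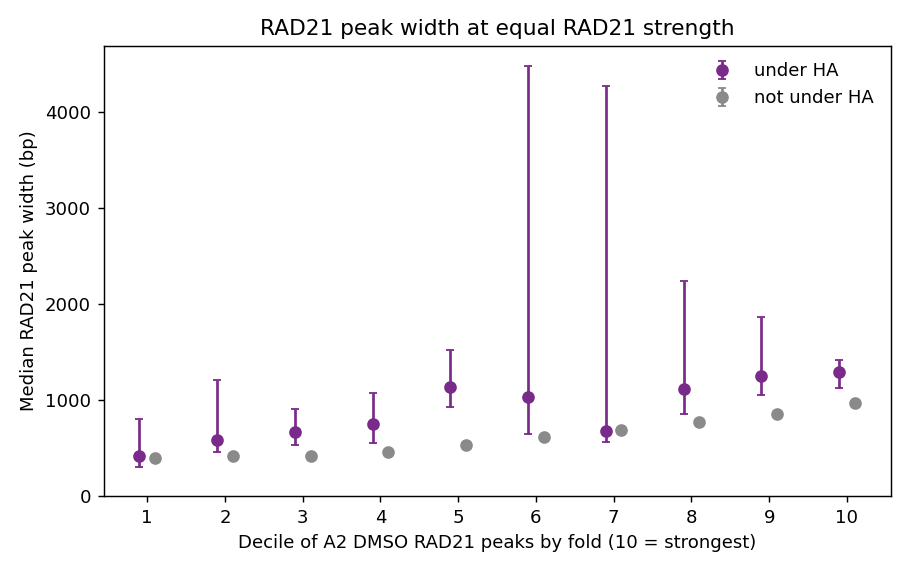
Median width of A2 DMSO RAD21 peaks in each decile of RAD21 fold, under HA and not under HA, with 95% order-statistic intervals. In 9 of 10 deciles the median under HA is the higher, with wide intervals in deciles 6 and 7, which hold 8 and 7 peaks under HA.

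After dTAGV-1, RAD21 calls under HA with CTCF mostly stayed, while those without CTCF were mostly missing at 4 h and mostly listed at 24 h. Over all 216 sites, 154 were in the 4 h list, 71.3% (64.9 to 76.9), and 189 in the 24 h list, 87.5% (82.4 to 91.3). The whole A2 DMSO list had 62.2% at 4 h and 64% at 24 h. With CTCF, 142 of 157 were present at 4 h and 150 at 24 h, 90.4% and 95.5%, where all CTCF-overlapping RAD21 peaks had 71.5% and 71%. Without CTCF, 12 of 59 were present at 4 h, 20.3% (12.04 to 32.3), and 39 of 59 at 24 h, 66.1% (53.4 to 76.9). All CTCF-free RAD21 peaks had 5.19% and 21.4%. The CTCF-bearing and CTCF-free sites under HA thus differed by 70.1 points at 4 h (56.9 to 79.2) and by 29.4 points at 24 h (17.8 to 42.4).

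At 24 h the CTCF-free sites under HA also stood above CTCF-free RAD21 peaks of like strength. The 5545 CTCF-free peaks not under HA had 38.4% at 24 h when weighted to the same deciles, and 39.0% when weighted to the same deciles and 5 width classes, against 66.1% under HA. At 4 h the matched values were 14.0% and 13.8% against 20.3%, which lay inside the interval of the HA sites. In all, 27 of the 59 were absent at 4 h and listed at 24 h, 0 the reverse, 12 were in both lists and 20 in neither. For CTCF-overlapping sites the matched values were closer: 87.5% at 4 h and 85.5% at 24 h by decile, and 85.8% and 87.9% by decile and width, against 90.4% and 95.5% under HA. The average background pileup, a measure of depth solved from fold and p, came to 1.87 for DMSO, 3.16 after 4 h and 2.83 after 24 h. Summit pileups solved as whole numbers at 230 of 230 peaks drawn from each of these lists, so no scaling showed in them. The part of depth in the presence counts was not tested.

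Clone D7 gave another order, at HA sites and at other CTCF-free RAD21 peaks alike. Of the 59 CTCF-free A2 sites under HA, 55 were in the D7 DMSO list, 45 in the D7 4 h list (76.3%, 64.0 to 85.3) and 38 in the D7 24 h list (64.4%, 51.7 to 75.4). Of the 5545 CTCF-free peaks not under HA, 58.8%, 48.2% and 24.9% were in these lists, and 78.4%, 63.5% and 43.2% when matched in decile and width. The D7 4 h list holds 39059 peaks and the A2 4 h list 25763. With CTCF, 154, 156 and 152 of the 157 were in these D7 lists, where matched peaks had 95.8%, 93.6% and 92.1%. Across all 6 RAD21 lists, 141 of the 230 HA peaks were covered every time.

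**Figure D4:**
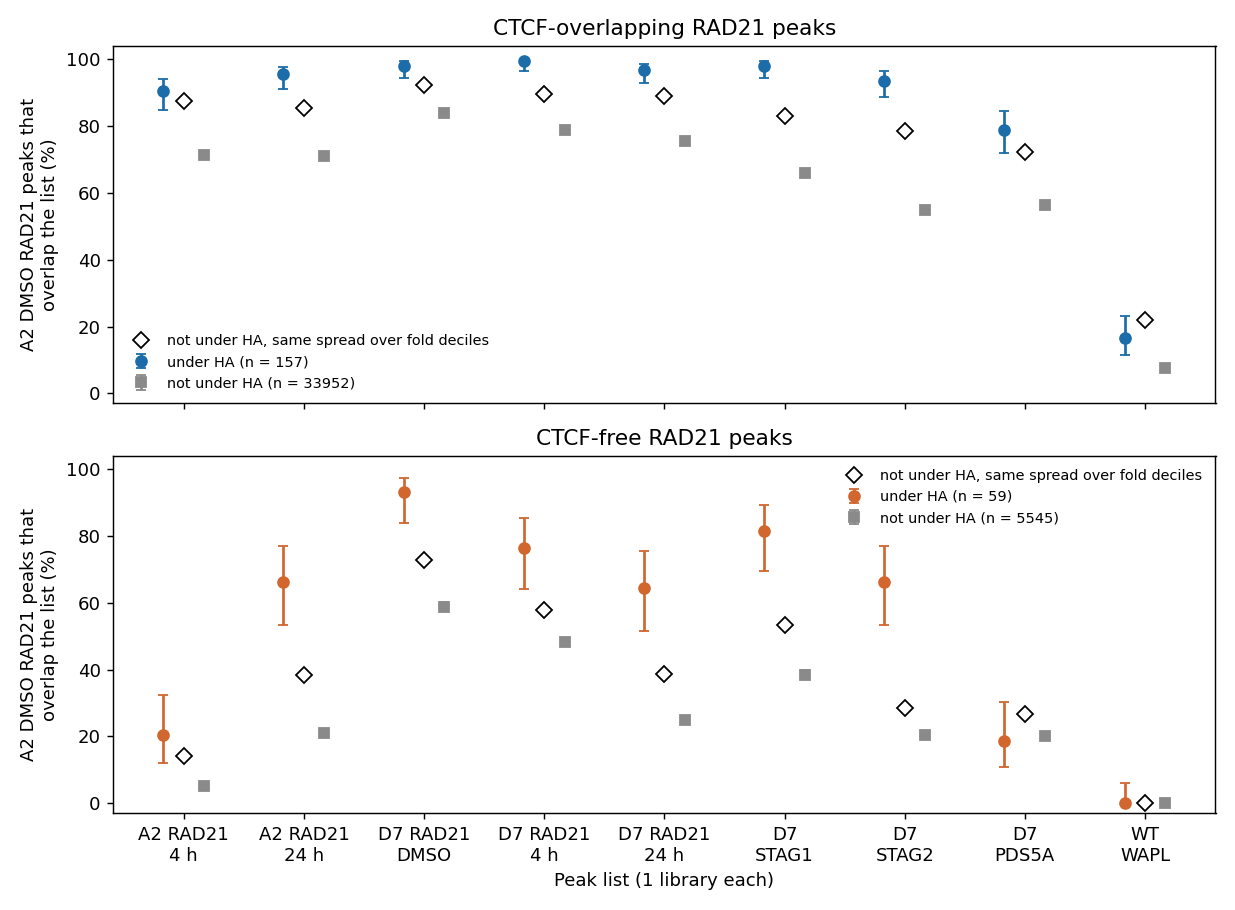
Percent of A2 DMSO RAD21 peaks that overlap each other list, for CTCF-overlapping (top) and CTCF-free (bottom) peaks. Filled circles are peaks under HA and squares the others, with 95% Wilson intervals; open diamonds are the others weighted to the same fold deciles. For CTCF-free peaks the shares under HA stand at 20.3% at 4 h, 66.1% at 24 h and 66.1% for STAG2; PDS5A is at 18.6%.

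The strongest RAD21 peaks under HA that were in both A2 dTAGV-1 lists were at COL1A1, near ZMYND8 and near BHLHE40. COL1A1 encodes the type I collagen chain, and its HA peak (chr17:50200635-50201027) had an HA fold of 5.80 over a RAD21 peak of fold 140 at the 99.9th percentile. The HA peak near ZMYND8, which encodes a chromatin reader (chr20:47384032-47384278), lay 27488 bp from the gene and its summit was 0 bp from the RAD21 summit. The one near BHLHE40, a circadian repressor (chr3:5026622-5027174), lay 41465 bp from the gene with an HA fold of 3.38. All 3 overlapped CTCF, STAG1, STAG2 and PDS5A, and their RAD21 folds in DMSO were 140, 128 and 121. In the dTAGV-1 lists the folds were 52.7, 63.2 and 41.5 at 4 h and 138, 74.7 and 52.0 at 24 h. Presence in a list does not show an unchanged signal, and whether RAD21 signal changed at these sites was not tested.

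The strongest RAD21 peaks under HA missing from both A2 dTAGV-1 lists were weaker. SOX4, a developmental transcription factor, had its HA peak inside the gene (chr6:21596085-21596623, fold 5.89) over a RAD21 peak of fold 15.03 and width 4480 bp that did overlap CTCF. A peak 186 bp from MYEOV (chr11:69297337-69297584, fold 5.93) and one 31586 bp from NRP1, a semaphorin and VEGF co-receptor (chr10:33365790-33366544, fold 7.04), lay on CTCF-free RAD21 peaks of fold 10.0 and 9.89. All 3 were in the D7 DMSO list, SOX4 and MYEOV were in the D7 4 h list as well, and NRP1 in the D7 24 h list.

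Some wide RAD21 peaks stayed in the list but no longer reached the stretch under HA. Among 8 HA peaks without CTCF whose RAD21 peak carried CTCF elsewhere, 6 of the RAD21 peaks were in the 4 h list, but the HA stretch itself was covered in 1. These RAD21 peaks had a median width of 2883 bp. Examples, chosen after their values were seen, are an HA peak 989 bp from the start of DHRS3, a retinaldehyde reductase gene, over a RAD21 peak 4646 bp wide, and one inside BCL6, a transcriptional repressor, over a RAD21 peak 7549 bp wide. At both, the HA stretch was in neither the 4 h nor the 24 h list. Over the 154 HA peaks with CTCF of their own, the RAD21 peak was kept but the HA stretch uncovered in 3 cases at 4 h.

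STAG1 and STAG2 lay at most HA sites, and PDS5A followed CTCF. With CTCF, 154 of the 157 RAD21 peaks under HA overlapped STAG1, 147 STAG2, 124 PDS5A and 26 WAPL, which is 98.1%, 93.6%, 79.0% and 16.6%. The other CTCF-overlapping peaks had 65.9%, 54.9%, 56.3% and 7.70%, and when matched in decile and width 89.9%, 78.4%, 79.7% and 24.3%. Against matched peaks, PDS5A was thus near and WAPL below. Without CTCF, 48 of 59 overlapped STAG1, 81.4% (69.6 to 89.3), and 39 overlapped STAG2, 66.1% (53.4 to 76.9), while all CTCF-free RAD21 peaks had 38.9% and 20.8%. PDS5A was at 11 of these 59, 18.6% (10.7 to 30.4), near the 20.1% of all CTCF-free RAD21 peaks, and WAPL at 0 of 59, as at 0 of the 5545 other CTCF-free peaks. Matched to the HA sites in decile and width, the other CTCF-free peaks overlapped STAG1 in 60.8%, STAG2 in 29.3% and PDS5A in 31.9% of cases. Against all other CTCF-free peaks the STAG2 difference was 45.7 points (33.0 to 56.6) and the PDS5A difference −1.46 points (−9.44 to 10.3). STAG1, STAG2 and PDS5A were mapped in clone D7 and WAPL in wild-type cells, so clone and protein differ together in these counts.

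The 10 HA peaks outside the A2 DMSO RAD21 list all lacked CTCF. The strongest of these by far, inside GTF2F2 (a subunit of the general factor TFIIF, HA fold 26.9), and those inside NIPBL and at ZBED6 were in none of the 11 other lists. The NIPBL peak (chr5:36953884-36954532, fold 9.20, width 649 bp) lay inside the gene that carries the degron tag, 77460 bp from its nearest end. The gene positions used give no exons, so the distance from this peak to the inserted tag was not tested. In or within 10 kb of the gene lay 4 RAD21 peaks. The ZBED6 peak (chr1:203795833-203796102, fold 6.56) lay 393 bp from the start of that gene, which sits inside ZC3H11A. HA peaks 120580 bp from TBL1X (chrX:9342528-9342883, fold 8.85) and inside FAM184A, 1682 bp from its start (chr6:119147285-119147525, fold 6.20) were listed in D7 DMSO RAD21 and STAG1. One inside ETV6 (chr12:11798965-11799425, fold 6.11) was in D7 DMSO RAD21 and STAG2, and one inside IL1RAP (chr3:190566424-190566680, fold 7.004) in STAG2 alone. The peak 9685 bp from ADAM12 (chr10:126398017-126398263, fold 5.59) was in all 4 dTAGV-1 RAD21 lists and in STAG1 and STAG2, but in neither DMSO list. The peak 17339 bp from CROCC (chr1:16896556-16896810, fold 5.58) was in the PDS5A list alone.

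Some HA peaks lay close together along the genome. Of the 230, 66 had another HA summit within 100 kb, and 30 lay in 7 groups of at least 3 peaks with gaps of at most 100 kb. The like share for an equal number of RAD21 peaks was not computed, so whether HA peaks were grouped more than RAD21 peaks was not tested. The largest group was at FIRRE (chrX:131691525-131830643), a long noncoding RNA gene of the X chromosome built around tandem CTCF-bearing repeats, with 9 HA peaks in or within 2 kb of it. All 9 overlapped CTCF and both A2 dTAGV-1 lists, with HA folds of 5.84 to 17.5, while 20 A2 DMSO RAD21 peaks lay in the same span and their ranks under HA ran from the 8.66th to the 73.8th percentile. DANT2 (chrX:115840396-115969111), a noncoding gene beside the DXZ4 repeat array, had 4 HA peaks (folds 7.21 to 22.5) among 7 RAD21 peaks, again all with CTCF and in both dTAGV-1 lists. Chromosome X held 20 HA peaks, 8.70% (5.70 to 13.0), and 2.69% of RAD21 peaks. Chromosomes 18, 19 and 21 had 0 of 230, which by the limit of 3 counts allows a share of up to 1.30%, and held 1.95%, 3.02% and 0.912% of RAD21 peaks. Repeat copies can share reads, so counts at FIRRE, DANT2 and FAM156A/B are uncertain. Without chromosome X, 69.0% of RAD21 peaks under HA were present at 4 h and 86.8% at 24 h.

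**Figure D5:**
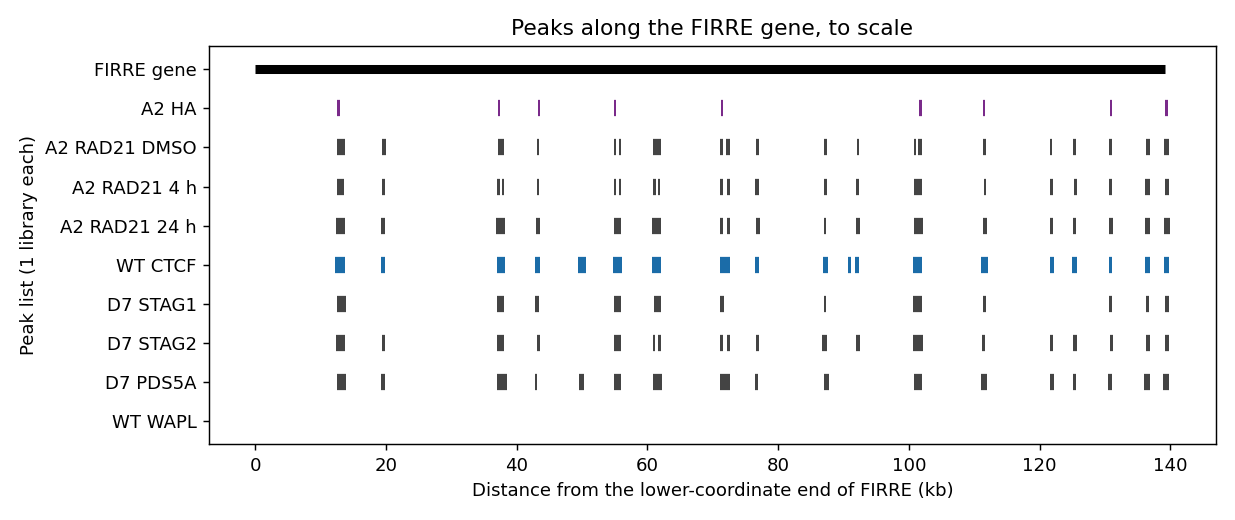
Peaks of 9 lists along FIRRE, in kb from the lower-coordinate end of the gene (black bar), drawn to scale. The 9 HA peaks coincide with RAD21 and CTCF peaks, and the RAD21 peaks beneath them are still listed at 4 h and 24 h of dTAGV-1; no WAPL peak lay there.

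Autosomal groups were mixed in CTCF. Over RAD51B, a recombination gene, 3 HA peaks in 135 kb (folds 5.24 to 5.80) had no CTCF, and all 3 were absent at 4 h and listed at 24 h. A further HA peak inside RAD51B but outside this group (chr14:68248501-68248979, fold 7.61) had CTCF. It lay on a RAD21 peak of fold 65.9 and was in both A2 dTAGV-1 lists. At CITED2, 4 HA peaks in 7.25 kb, 3 of them with CTCF, shared 2 RAD21 peaks, and 1 was covered at 4 h and 3 at 24 h. At BCL6, 3 HA peaks lay in 8.75 kb with RAD21 ranks from the 92.1st to the 94.8th percentile. In the interval 223100 bp and more from SLC39A11, in and near LINC00673, 4 HA peaks lay in 34.2 kb and 1 of them had CTCF. Near TBL1XR1, 3 HA peaks lay in 14.6 kb, and all 3 were covered at 24 h. Single CTCF-free sites absent at 4 h and listed at 24 h also lay inside SUSD1, HIVEP1 and BNC2, 75251 bp from the osteoblast factor gene RUNX2 and 83185 bp from the hyaluronan synthase gene HAS2, named here after their values were seen.

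In each gene list at most 1 gene had an HA peak, and most genes had RAD21. A list gene was counted when an HA peak lay in it or within 10 kb, which held for 118 of 20033 protein-coding genes, 0.589%, while 70.5% had an A2 DMSO RAD21 peak. Among 15 cohesin genes and regulators, NIPBL alone had an HA peak, the one found in none of the 11 other lists, and 13 had RAD21. Among 11 AP-1 and immediate early genes, JUN alone had one (chr1:58784396-58785574, fold 6.76, width 1179 bp), covering the start of JUN-DT. Of 13 matrix and TGF-beta genes only COL1A1 had one, and of 9 p53 and cell cycle genes only MYC (chr8:127734006-127734250, fold 6.56), 1305 bp from the gene end and on a RAD21 peak 5935 bp wide. None of the 10 YAP and TEAD targets or 10 cytoskeletal genes had an HA peak, which is near the 0.589% of all protein-coding genes, and all 20 had RAD21. Each of the other lists had 1 gene with HA, a share of 6.67% to 11.1%. With 0 or 1 gene per list, whether any list differed from all protein-coding genes was not tested. The JUN and MYC peaks both overlapped CTCF and were in all 6 RAD21 lists. The widest HA peak of all, 1576 bp (chr17:41547776-41549351, fold 7.53), lay 16840 bp from KRT9, on a RAD21 peak of fold 64.0.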

How the data were processed

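Peak lists of 12 immunoprecipitations were used, out of 22 samples that include 10 inputs. Every group held 1 library, so shares carry 95% Wilson intervals, differences Newcombe intervals and medians order-statistic intervals, and no p-value was computed. The authors deposited each peak's fold enrichment as a ratio and its −log10 p and −log10 q. Each served for ranks, thresholds and description inside its own list. The submitters' processing notes name BWA, Picard, SAMtools, bedtools, deepTools and MACS2 and the builds hg38 and mm10, with no roles or versions. Each list belongs to 1 library. The lowest q in the files fits a threshold of 0.001 for CTCF and 0.01 for the others. An average background pileup was solved from fold and p under a Poisson model. HA pileups came out as whole multiples of 0.566, and fragment numbers are pileup divided by that step.

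Overlap means at least 1 bp. Distances from an HA peak to a gene, gene end or start are measured from the HA summit. Fate was counted on distinct A2 DMSO RAD21 peaks overlapped by HA. Gene ends, gene bodies and promoter sequences came from RefSeq tables for GRCh38.p14, of which the gene table gives no strand or exons and the promoter table has no chromosome 8. Coordinates are 1-based. Named peaks were the 3 of highest HA fold in each of 4 classes (CTCF or not, gene end or not), every HA peak outside RAD21 (1 is not reported here), the 3 of highest RAD21 fold kept in both and missing from both A2 dTAGV-1 lists, the 2 widest, and those within 10 kb of a listed gene. Members, lists and this rule were chosen with earlier results of these data known. Overlap and interval code was tested on simulated peaks. Python 3.11.15 with numpy 2.4.6, pandas 2.3.3, scipy 1.17.1 and matplotlib 3.10.9 was used. Alternatives are in the closing section. Spike-in factors and inputs were not used.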

Additional observations from a re-analysis of the deposited data

How the results depend on the processing

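No paired analysis was possible because each group held 1 library. Values were recomputed under other thresholds, overlap rules and windows; those that left the main 95% interval follow. With HA peaks of a −log10 q of at least 10 there were 77 peaks, CTCF overlap was 79.2%, median HA width 405 bp, presence after 4 h 80.8% and after 24 h 93.2%, the CTCF difference at 4 h 96.7 points and the summit distance 45 bp. With an overlap of at least 50% of both peaks, 23.9% of HA peaks lay on RAD21 and 16.1% on CTCF, presence was 52.7% at 4 h and 72.7% at 24 h, and the CTCF difference at 4 h was 53.4 points. With summits within 200 bp, 77.0% lay on RAD21 and 52.2% on CTCF. RAD21 peaks of a −log10 q of at least 10 covered 87.4% of HA peaks, and the upper 50% of CTCF peaks by fold 54.8%. Gene ends held 17.8% of HA summits in a window of 2.5 kb and 5.88% with transcription starts only. Midpoints in place of summits gave a distance of 89.25 bp. For each of these the cause was not tested. The CTCF differences in presence at 4 h and 24 h kept their sign under each alternative run; the other differences were not recomputed. Leaving out chromosome X, an alternative chosen after seeing the data, kept all 12 results inside these limits. Depth limits the HA list: signal below the authors' threshold is not in it, and the background pileup of the RAD21 libraries differed.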
